A study of Homo sapiens with 6 samples.

Results

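The loci described are LTR12C copies in which no read was counted in any of 3 control libraries. LTR12C is a subfamily of the long terminal repeats of HERV9, a group of endogenous retroviruses. A copy was chosen where its repeat name was exactly LTR12C and its reads summed over the control libraries were 0. This held for 1226 of the 1710 LTR12C copies listed, and for 198062 of all 433837 listed repeat loci. The choice used the control reads, so the difference between the groups in these copies is partly fixed by it, and nothing is concluded from a test of it. The files list only loci read in some library, so each of the 1226 copies had to hold a read with the U7 ASO. The word silent is used below for 0 reads counted in the 3 control libraries, which together hold 5933670 reads in repeat loci. A count of 0 there allows up to 0.496 CPM (3 reads over the control libraries, counting error only), where CPM stands for counts per 1000000 counts in repeat loci after scaling of the libraries.

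The libraries come from HEK293T, an established line of human embryonic kidney origin. Cells labelled WT received an antisense oligonucleotide (ASO) against GFP as the control (3 libraries), and cells labelled as a U7 snRNA knockdown received an ASO against U7 snRNA (3 libraries). Both groups were transfected with a chemically modified chimeric ASO at 100 nM with Lipofectamine 2000, and total RNA was depleted of ribosomal RNA before library preparation. The series title asks whether HERV1/LTR12s and lincRNAs are repressed by U7 snRNA, a small RNA best known for its part in forming the 3′ ends of histone mRNAs. The design text calls the libraries of a group biological replicates, and the time after transfection is not given in the sources used here.

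The long terminal repeats of a retrovirus flank its internal, protein-coding part and hold its promoter and its polyadenylation signal. Most copies in the human genome are solitary, since recombination between the repeats at the ends of a provirus removes the internal part. Copies of LTR12 elements can act as promoters for neighbouring sequence, and transcription from many of them is known to increase in human cells treated with inhibitors of histone deacetylases. The family spread in the primate lineage, and its copies resemble each other closely enough that a short read can fit several of them.

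The tables hold repeat loci only, so neither the cell line nor the U7 gene could be checked through gene counts. Repeat loci named U7 (16 listed) had 10, 6 and 12 reads in controls 1 to 3 against 10, 4 and 6 after the U7 ASO, too few to check the labels. Totals of reads in repeat loci ran from 1926892 to 2025985 in the control libraries and from 2089822 to 2819540 in the U7 ASO libraries. The spread over the 3 libraries of a group is the only error the design gives. Because reads of near-identical copies could have been placed on another copy or dropped, a value for a single copy is less certain than a sum over copies.

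In the U7 ASO libraries the silent copies together held 18740, 12389 and 18756 reads, against 0 in each control library by the choice. Scaled to library size, these were 8887, 5250 and 7108 CPM, with a mean of 7082 ± 1819 (SD, n = 3). Replicate 1 was highest and replicate 2 lowest. The silent copies supplied 32.6% of all LTR12C reads in U7 ASO replicate 1, 32.0% in replicate 2 and 36.0% in replicate 3, with Clopper-Pearson 95% intervals running from 31.5% to 36.4%. That share varied far less between the libraries than the amount did, at 33.5% ± 2.13 (SD, n = 3). The other 484 LTR12C copies, which had control reads, held 18369, 11152 and 12658 CPM with the U7 ASO and 1675, 1668 and 1861 CPM in the controls. The silent copies therefore made up 71.7% of the listed LTR12C copies and about 33.5% of the LTR12C reads after the U7 ASO.

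**Figure D1:**
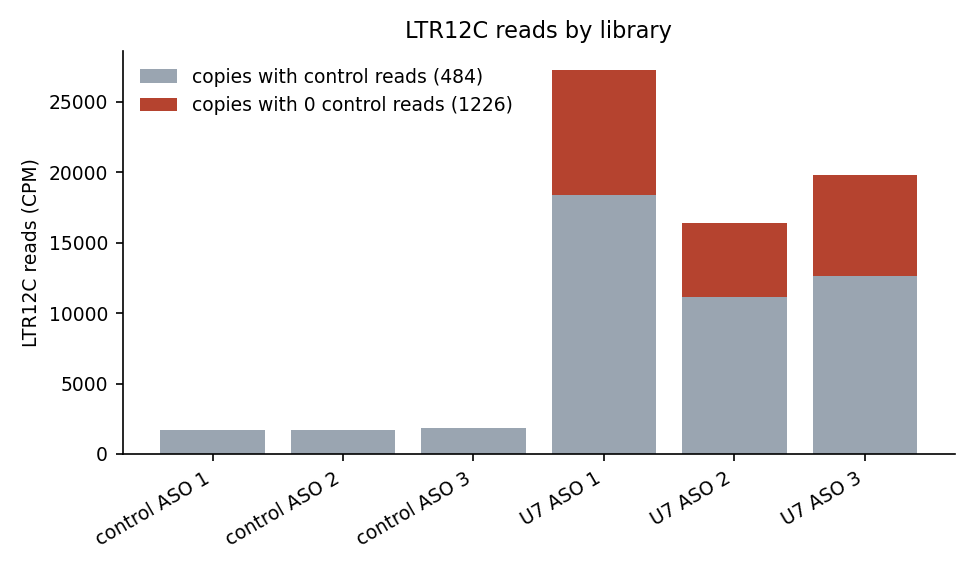
Reads in LTR12C copies, in CPM, for each of the 6 libraries; the lower part of each bar is the sum over 484 copies with control reads and the upper part the sum over 1226 copies with 0 control reads. The upper part is absent in the controls by the choice of the copies and measures 8887, 5250 and 7108 CPM in the U7 ASO libraries.

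A silent copy held fewer reads than a copy already transcribed in the controls. The mean was 15.3, 10.1 and 15.3 reads per silent copy in U7 ASO replicates 1 to 3, against 80.0, 54.4 and 69.0 reads per copy with control reads. Over the 3 libraries the median silent copy held 16 reads (quartiles 6 and 40), and the median copy with control reads 39.5 (quartiles 10 and 149.75). The largest values were 1015 and 6206 reads. The order is partly set by the choice, because a copy with more reads anywhere is less likely to be at 0 in the controls.

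Reads appeared in many silent copies in each library. U7 ASO replicate 1 had reads in 851 of the 1226, replicate 2 in 785 and replicate 3 in 857. In 467 copies (38.1%) all 3 libraries held a read, in 333 (27.2%) 2 libraries did and in 426 (34.7%) 1 did. Over all repeat loci chosen by the same rule, 2.40% had reads in all 3 U7 ASO libraries. The copies seen in a single library were spread over the libraries, with 142 in replicate 1, 127 in replicate 2 and 157 in replicate 3. Their median was 4 reads and their maximum 28, so most of them sat near the lowest counts that can be seen. By reads, copies present in all 3 libraries carried 83.2% of the total, those in 2 libraries 11.6% and those in 1 library 5.26%.

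The same choice was applied to other repeats for comparison. The share of silent loci with reads in all 3 U7 ASO libraries was 38.1% for LTR12C, 25.4% for the internal parts of HERV9 (43 of 169), 12.0% for the other LTR12 names (59 of 493) and 2.13% for all repeats outside LTR12 and HERV9 (4186 of 196174). With at least 10 reads required in each library, 215 silent LTR12C copies (17.5%) remained, against 0.275% of all silent loci. Per library, 69.4%, 64.0% and 69.9% of the silent LTR12C copies had a read, against 29.3%, 43.4% and 43.7% of the silent loci outside LTR12 and HERV9. The difference averaged 29.0 percentage points over the 3 libraries. Every locus of either set is listed only because a U7 ASO library read it, and these shares are given without a test.

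**Figure D2:**
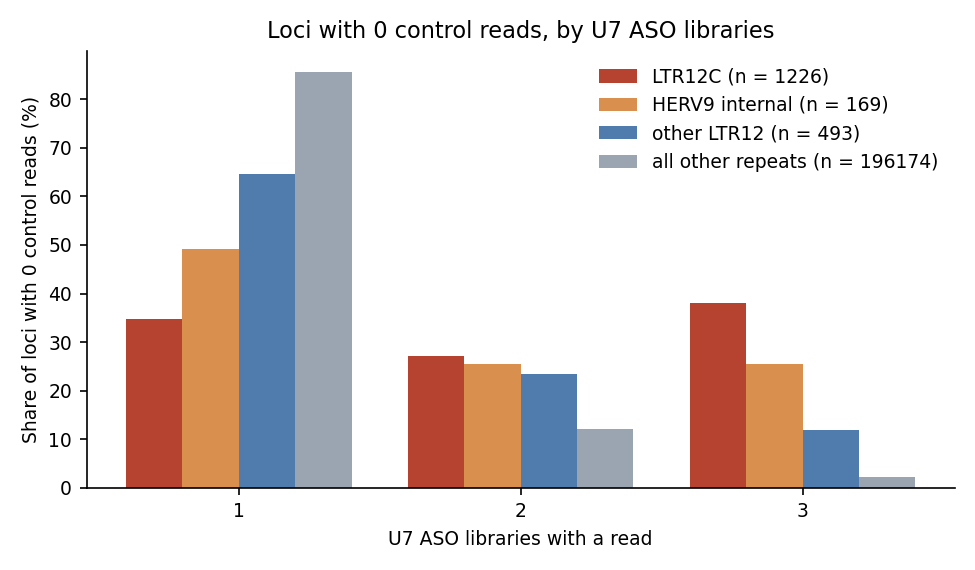
Share of loci with 0 control reads (in %) that have a read in 1, 2 or 3 U7 ASO libraries, for LTR12C copies, HERV9 internal parts, other LTR12 names and all other repeats, with the number of loci in the key. LTR12C has the largest share in all 3 libraries (38.1%), and the other repeats have 85.7% of their loci in a single library.

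The difference in these shares depended on the number of reads in a locus. Among loci holding 6 to 19 U7 ASO reads, 50 of 447 silent LTR12C copies (11.2%) and 2160 of 69741 silent loci outside LTR12 and HERV9 (3.10%) had reads in all 3 libraries. Among loci holding 20 to 49 U7 ASO reads, 170 of 283 silent LTR12C copies (60.1%) and 1602 of 4562 silent loci outside LTR12 and HERV9 (35.1%) had reads in all 3 libraries. At 50 to 99 reads the shares were 96.2% (127 of 132) and 90.3% (251 of 278), and at 100 or more reads 120 of 120 and 91 of 92. The sets also differed in how many loci reached such counts. Of the silent LTR12C copies 9.79% held 100 or more reads, against 0.117% of all silent loci.

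The reverse choice gave far fewer copies. Only 41 of the 1710 LTR12C copies (2.40%) had 0 reads in all 3 U7 ASO libraries, against 26.8% of all listed repeat loci. The share was also low for the internal parts of HERV9 (6.14%) and the other LTR12 names (10.2%). The U7 ASO libraries held more reads in repeat loci than the controls, which makes a count of 0 less likely in them. Of the 41 LTR12C copies, 34 had reads in 1 control library, 7 in 2 and 0 in all 3, and none held more than 28 control reads. Among all repeat loci the reverse choice gave 116428 loci, of which 1386 had reads in all 3 controls.

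A control library that took no part in the choice served as a measure of how silent the copies were. Copies with 0 reads in control replicates 2 and 3 numbered 1307, of which 6.20% had a read in control replicate 1 and 68.9%, 64.4% and 69.9% had a read in U7 ASO replicates 1, 2 and 3. With control replicate 2 left out, 7.89% of 1331 copies had a read in it, and between 64.6% and 69.6% in the U7 ASO libraries. With control replicate 3 left out, the values were 7.40% of 1324 copies and between 64.6% and 70.5%. The exact 95% intervals of these shares ran from 4.95% to 9.47% for the left-out controls and from 61.8% to 72.9% for the U7 ASO libraries, and they cover counting error over the copies of a single library, not the spread between libraries. Among loci outside LTR12 and HERV9 chosen in the same way, between 19.2% and 25.0% had a read in the left-out control compared with 25.8% to 39.1% for the U7 ASO libraries. A copy is listed here only if the left-out control or a U7 ASO library read it, so the level of these shares is partly set by the listing. At least 869 numbered LTR12C copies are not listed, and counting them would lower every LTR12C share. The 3 choices share libraries, and 1 library against 3 allows no useful test.

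The amounts differed in the same direction. In the copies with 0 reads in the other 2 controls, the left-out control library held 242 CPM (replicate 1), 246 CPM (replicate 2) and 323 CPM (replicate 3). The U7 ASO libraries held between 5913 and 11507 CPM in the same copies. A U7 ASO library held between 20.9 and 40.3 times the CPM of the left-out control.

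**Figure D3:**
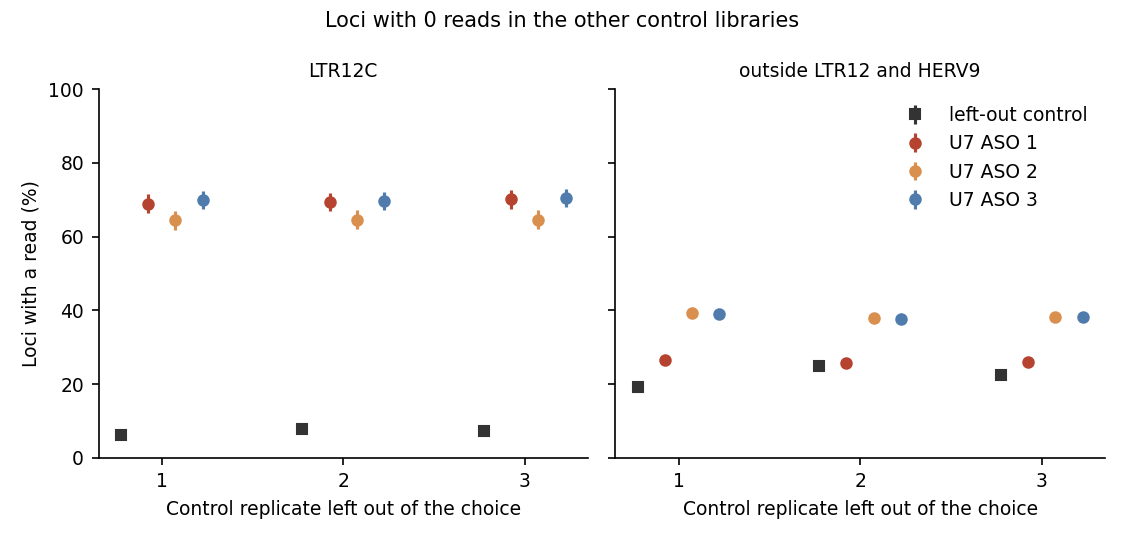
Share of loci with a read (in %, with Clopper-Pearson 95% intervals) in the control library left out of the choice (squares) and in the 3 U7 ASO libraries (circles), for loci with 0 reads in the other control libraries. For LTR12C the left-out controls lie between 6.20% and 7.89% and the U7 ASO libraries between 64.4% and 70.5%. For repeats outside LTR12 and HERV9 the ranges are 19.2% to 25.0% and 25.8% to 39.1%. Loci read in no library are not listed and are not counted in these shares.

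Reads were spread over many copies. The 10 silent copies with the most reads took 12.0% of the 49885 reads, the leading 100 took 48.4% and the leading 300 took 75.4%. It took 108 copies (8.81%) to hold 50% of the reads and 577 copies (47.1%) to hold 90%. The copies with control reads were more concentrated, with 24 copies (4.96%) holding 50% and 142 (29.3%) holding 90% of theirs. In single libraries the leading 10 took 13.3%, 11.6% and 10.8% of the reads of the silent copies in replicates 1, 2 and 3. At the other end, 127 copies held 1 or 2 reads in all. Between 85.4% and 90.2% of the counts above 0 in these copies were even, which is what counting both ends of a fragment would give, so 2 reads may be a single fragment.

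Folds for silent copies are lower bounds as far as the controls go, computed against 3 reads over the control libraries. The U7 ASO reads enter as counted, without their counting error or their spread between libraries. A fold given below as at least some value is meant in this sense. The median bound was 4.54-fold. For 138 copies with up to 3 reads no increase can be bounded. A bound of at least 10-fold was reached by 335 copies, and of at least 100-fold by 17. These bounds take each read as a separate observation. If each fragment was counted at both ends, a limit of 3 fragments is 6 reads (0.992 CPM), and every bound is lower by a factor of 2. The median bound was then 2.27-fold, 332 copies had no bound above 1, 173 reached 10-fold and 2 reached 100-fold. Exact intervals computed on reads would then also be too narrow.

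The 15 copies with the largest summed CPM among those with reads in all 3 libraries held 16.0% of the reads. LTR12C_dup70_3108074 led with 412, 333 and 270 reads in U7 ASO replicates 1 to 3 and 0 in each control, or 146 ± 46.8 CPM (SD, n = 3), at least 288-fold higher. LTR12C_dup2_3224152 held 364, 133 and 353 reads (121 ± 59.2 CPM), at least 241-fold higher. The 3 libraries were above the floor in both copies, but their order differed, with replicate 3 lowest in the first and replicate 2 lowest in the second.

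LTR12C_dup28_2739134 held 280, 118 and 158 reads and LTR12C_dup27_2739029 held 258, 128 and 156, in a like pattern over the libraries. These copies are consecutive in the LTR12C numbering and lie 105 running numbers apart. LTR12C_dup73_3108289 held 263, 109 and 158 reads (76.9 ± 42.0 CPM), and LTR12C_dup27_5212038 held 236, 107 and 176 (74.7 ± 34.0 CPM). In these 4 copies replicate 1 held the most reads and replicate 2 the fewest.

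LTR12C_dup103_1902367 stood out by even counts, with 151, 186 and 174 reads (72.1 ± 6.45 CPM). It was the only one of the 15 whose highest CPM was not in replicate 1. LTR12C_dup8_4486742 held 167, 136 and 208 reads (71.9 ± 12.3 CPM) and LTR12C_dup35_927477 held 167, 108 and 201 (67.0 ± 18.5 CPM). Replicate 2 was lowest in both, as in 12 of the 15 copies.

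LTR12C_dup53_4225453 held 202, 84 and 180 reads, and LTR12C_dup105_4112877 held 169, 104 and 183. LTR12C_dup65_3106975 held 191, 114 and 103 reads, LTR12C_dup132_3954119 held 148, 65 and 180, LTR12C_dup1_4794006 held 174, 68 and 142, and LTR12C_dup134_1750584 held 166, 76 and 136. Their bounds ran from at least 107-fold to at least 132-fold higher. Against 6 control reads the bounds of the 15 copies ran from at least 53.6-fold to at least 144-fold higher.

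**Figure D4:**
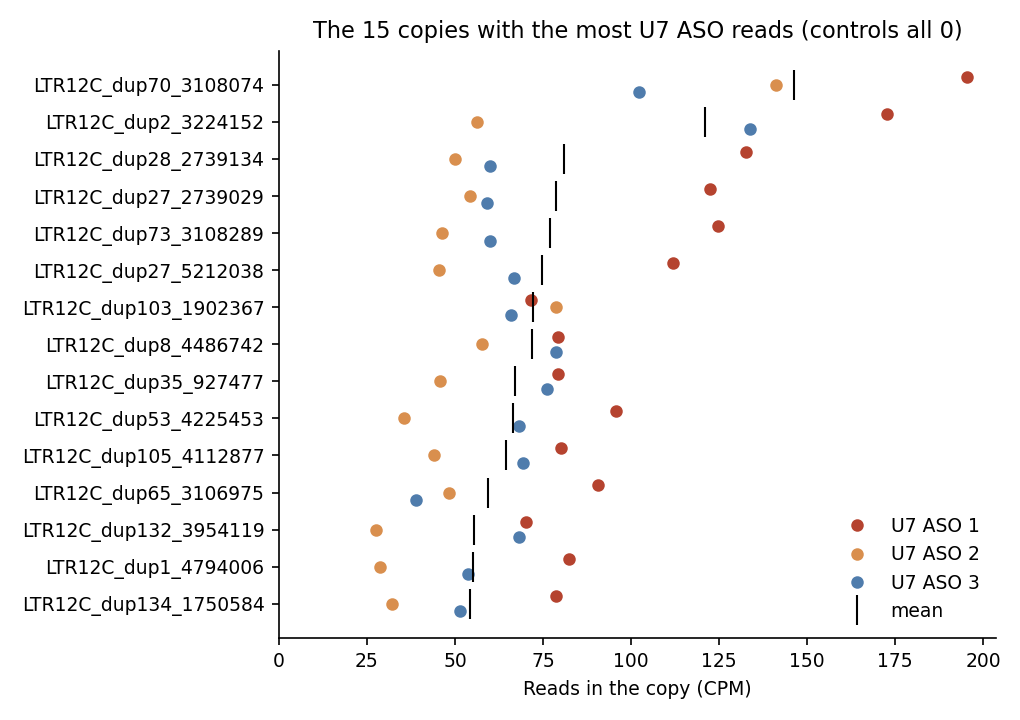
Reads (in CPM) in the 15 silent LTR12C copies with the largest summed CPM, 1 point per U7 ASO library and a bar at the mean; all 3 control libraries are at 0 in every copy shown. Replicate 1 is highest in 14 of the 15 copies and replicate 2 is lowest in 12.

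The libraries resembled each other over copies only in part. Pearson's r of log2(CPM + 1) over the 1226 copies was 0.60 between replicates 1 and 2, 0.58 between 1 and 3 and 0.55 between 2 and 3, and Spearman's rho was 0.48, 0.48 and 0.44. These describe copies that share libraries. In the 467 copies with reads in all 3 libraries, r lay between 0.63 and 0.69. Their median coefficient of variation over the 3 libraries was 52.5% (quartiles 34.8% and 71.3%), and 41.1% in the 120 copies with 100 or more reads. Replicate 1 had the highest CPM in 237 of the 467, replicate 3 in 150 and replicate 2 in 80.

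Copies with many reads in a single library were rare. Of the 535 silent copies with 20 or more reads, 21 (3.93%) had at least 90% of them in 1 library. LTR12C_dup101_1900058 held 46, 0 and 2 reads in replicates 1 to 3, LTR12C_dup135_2672479 held 38, 2 and 0, and LTR12C_dup33_2748839 held 30, 2 and 1. LTR12C_dup41_175263 held all of its 28 reads in replicate 3, and LTR12C_dup102_1902282 held 24 of 26 in replicate 2. LTR12C_dup102_1902282 precedes the evenly read LTR12C_dup103_1902367 in the numbering.

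The limit of 0 reads cut through a continuous range. Just outside it, 91 copies had 1 or 2 control reads, and 42 of them (46.2%) had reads in all 3 U7 ASO libraries, with a median of 22 U7 ASO reads against 16 for the silent copies. LTR12C_dup71_1657092 held 2 control reads and 433, 210 and 209 U7 ASO reads (ratio 362, exact 95% interval 100.0 to 2998). LTR12C_dup88_1886745 held 1 control read and 247, 163 and 327 (ratio 627, 112 to 24802), and LTR12C_dup67_3107530 held 2 and 188, 231 and 216 (ratio 270, 74.5 to 2236). LTR12C_dup55_4040213 and LTR12C_dup6_22392, each with 2 control reads, held 350 and 332 U7 ASO reads. LTR12C_dup71_1657092, LTR12C_dup88_1886745 and LTR12C_dup67_3107530 lie within the range of the 15 leading silent copies, 378 to 1015 U7 ASO reads. LTR12C_dup55_4040213 and LTR12C_dup6_22392 lie below it, and 14 of the 91 held 0 U7 ASO reads.

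Few silent copies passed the count filter of the test over all repeat loci. It kept 179 of the 1226 (14.6%), which held 60.9% of their reads. A copy at 0 in the controls passes only through its U7 ASO reads, and each copy kept held at least 40. Of the 179, 164 were called raised, 0 lowered and 15 neither (edgeR quasi-likelihood test, Benjamini-Hochberg adjusted p under 0.05), against 4.49% raised over all 14380 loci tested. The choice used the same contrast, so nothing is read from this count. Of all 425 tested loci with 0 control reads 89.9% were called raised, and of the 221 outside LTR12 and HERV9 87.3%, so the share among the silent copies was near that of other loci chosen in this way. Without U7 ASO replicate 1 the number of silent copies called was 85, of 204 that passed the filter.

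The files give a running number for each locus and no coordinates. Loci with consecutive running numbers are taken here as neighbours in the repeat annotation, with an unknown distance in bases. Most silent copies stood alone: 1162 had no other silent copy within 20 running numbers, and the other 64 formed 32 pairs. An internal part of HERV9 lay between the copies in 9 of these pairs, the arrangement of a provirus that keeps both of its long terminal repeats. An internal HERV9 locus was listed within 5 running numbers of 39 silent copies (3.18%) and of 32 copies with control reads (6.61%). Of the 45 internal loci near silent copies 29 had 0 control reads and are listed only through U7 ASO reads, so the presence of an internal part in the list depends on the U7 ASO libraries and the reads of copies with and without one are not compared.

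The pair with the most reads had such an arrangement. LTR12C_dup34_2476236 held 132, 52 and 33 reads in U7 ASO replicates 1 to 3, and LTR12C_dup35_2476239 held 62, 36 and 34. Between them HERV9NC-int_dup1_2476237 held 38, 32 and 32 reads and HERV9NC-int_dup2_2476238 held 18, 8 and 14. All 4 loci were at 0 in the 3 controls. Over the 1226 silent copies, those beside an internal part carried 4.91%, 4.92% and 3.44% of the reads of silent copies in replicates 1 to 3.

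The other leading pairs were uneven. LTR12C_dup109_1352803 held 71, 69 and 78 reads, and LTR12C_dup108_1352791, 12 running numbers away, held 10, 4 and 4. LTR12C_dup117_1087629 held 98, 68 and 56 reads, whereas LTR12C_dup118_1087644 held 12 in replicate 1 and 0 in the others. In both of these pairs the copies differed in reads, and their distance in bases is not known.

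Reads in unrelated repeats beside silent copies were also higher with the U7 ASO. In the 483 listed loci outside LTR12 and HERV9 with the running number next to a silent copy, leaving out those within 20 numbers of a copy with control reads, the sum was 51.4 ± 20.3 CPM in the controls (SD, n = 3) and 1075 ± 250.1 CPM with the U7 ASO (SD, n = 3). The ratio of these means was 20.9. The ratio was 11.7 at a distance of 3 running numbers, 5.16 at 5, 2.53 at 10 and 1.78 at 20. At distance 1 the lowest U7 ASO value was above the highest control value. Over all repeat loci outside LTR12 and HERV9 the ratio was 1.01. These loci hold nearly all reads (2021665 of 2025985 in control replicate 1), so the scaling keeps that ratio near 1.

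These ratios are not independent of the choice, which also favours low control reads in any repeat that shares a transcript with a silent copy. Of the 483 adjoining loci 427 (88.4%) had 0 control reads themselves, against 45.5% of all loci outside LTR12 and HERV9. At a distance of 20 running numbers 76 of 125 loci (60.8%) had 0 control reads, so this share was lower there, as the ratio was. Loci adjoining other silent repeats, over 20 numbers from any LTR12 or HERV9 locus, gave a ratio of 1.05 around all 189725 of them. Of these repeats 4274 had 20 or more U7 ASO reads, with 2733 adjoining loci. Those held 19560 ± 6603 CPM in the controls and 9328 ± 2083 CPM with the U7 ASO (SD, n = 3), a ratio of 0.477. Around the 535 silent LTR12C copies with that many, 280 adjoining loci held 23.4 ± 11.8 and 828 ± 187 CPM, a ratio of 35.4. Of the other silent repeats 19 had 100 or more U7 ASO reads. Their 17 adjoining loci held 1.24 ± 1.72 CPM in the controls and 49.0 ± 13.3 CPM with the U7 ASO (SD, n = 3). Around the 120 silent LTR12C copies with 100 or more, the 82 adjoining loci held 7.83 ± 9.22 CPM in the controls and 446 ± 110 CPM with the U7 ASO (SD, n = 3). In both sets with 100 or more reads the control SD exceeded the control mean, so no ratio is given for them. Only 19 such loci outside the family could be used because 73 of the 92 silent ones with 100 or more reads (79.3%) lay within 20 running numbers of a listed LTR12 or HERV9 locus, and 34 of them within 20 of a silent LTR12C copy.

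**Figure D5:**
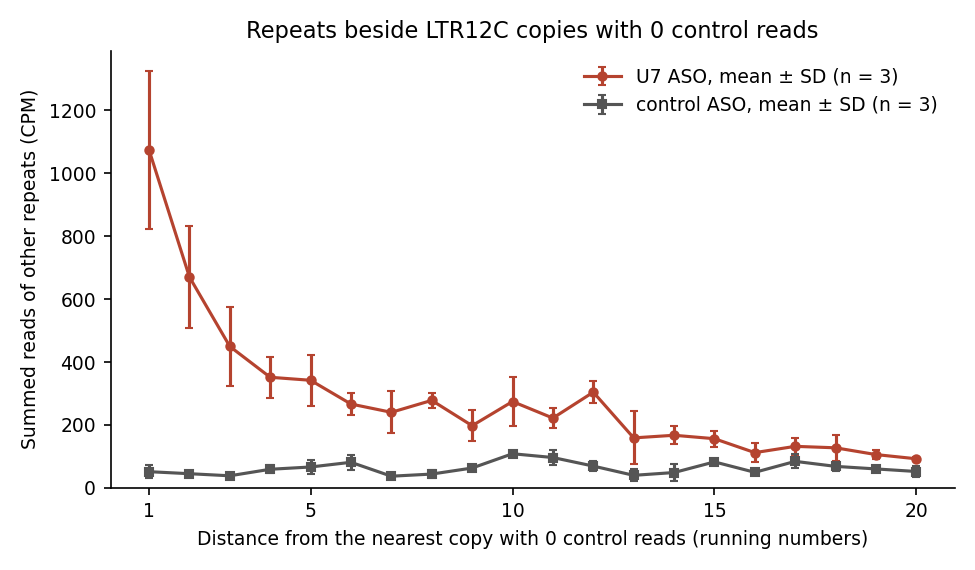
Summed reads (CPM, mean ± SD, n = 3 libraries per group) of repeats outside LTR12 and HERV9 by their distance, in running numbers, from the nearest silent LTR12C copy, leaving out repeats within 20 numbers of a copy with control reads. The U7 ASO sum falls, though not at every step, from 1075 CPM (483 loci) at distance 1 to 92.4 CPM (125 loci) at distance 20. The control sum lies between 37.0 and 108 CPM throughout. These are sums and not values per locus, so part of the fall comes from fewer loci. Loci without control reads make up 88.4% at distance 1 and 60.8% at distance 20.

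Around single copies the flanking reads lay mostly on 1 side. Of the 120 silent copies with 100 or more reads, 77 had at least 20 U7 ASO reads in unrelated repeats within 5 running numbers. In 63 of these 77 at least 90% of the flanking reads were on 1 side (35 on the side of lower and 28 of higher numbers). Few flanking loci were listed, 298 around the 120 copies. Where only 1 was listed, as beside LTR12C_dup103_1902367, all flanking reads had to lie on 1 side. The same share around other loci is not given, so nothing is concluded from the 63. Beside LTR12C_dup70_3108074, 5 loci at higher numbers held 164 U7 ASO reads and 0 control reads, led by L3_dup1537_3108077 (13, 12 and 44 reads) and L1MDa_dup542_3108075 (23, 18 and 27), while the locus listed on the lower side held 0. LTR12C_dup2_3224152 had 446 flanking reads, all on the lower side, 349 of them in MLT1J2_dup2_3224150 (147, 86 and 116). LTR12C_dup103_1902367 was followed by LTR1_dup6_1902368, with 54, 68 and 63 reads and 0 in the controls.

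LTR12C_dup27_5212038 had 373 flanking reads, all on the higher side, but 138 control reads were also counted there, all in AluJb_dup604_5212043. LTR12C_dup28_2739134 and LTR12C_dup134_1750584 had flanking reads on both sides (28 and 20, and 24 and 26). LTR12C_dup1_4794006 had no listed repeat within 5 running numbers. The strand of a read is not known from these counts, so the side with reads cannot be set against the orientation of a copy. Whether flanking reads belong to transcripts that start in the copy was not tested.

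The copy number in the LTR12C identifiers restarts along the running order, which divides the copies into 24 stretches. Silent copies were listed in each of them. The highest copy numbers reached in the stretches add up to 2562. Of the listed copies 1693 carry a number, so at least 869 numbered copies are not listed in the files. Apart from a stretch with a single silent copy, between 41.7% and 80.5% of the listed copies of a stretch were silent, and the median reads per silent copy ran from 6 to 56.

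The stretch from running number 2920565 to 3166499 held 98.3 reads per silent copy on average over 50 copies, the highest mean of the 24, and 70.0% of its silent copies had reads in all 3 U7 ASO libraries. That mean rests in part on 3 copies, which held 1953 of the 4913 reads: the other 47 averaged 63.0. With no copy left out, 2 other stretches averaged 87.8 and 84.9. Their leading copies were not removed, so 63.0 is not ranked against them. The median of the stretch, 35.5 reads, was below the highest median, 56. Of all spans of 2000 running numbers, the one with the most reads in silent copies, found after the values were seen, ran from LTR12C_dup65_3106975 to LTR12C_dup73_3108289 and held 3 of the 15 leading silent copies, with 3.92% of all reads of silent copies. In this span and up to LTR12C_dup74_3108530 the 3 silent copies alternated with 7 copies that had 2 to 48 control reads. Those 7 held 18181 U7 ASO reads in all, led by LTR12C_dup69_3107886 with 3030, 1605 and 1571 and LTR12C_dup68_3107884 with 2403, 1576 and 2161. Silent copies in this span lay among the most heavily read LTR12C copies of the U7 ASO libraries, and reads placed on the wrong copy were not tested for.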

How the data were processed

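RNA of 6 HEK293T libraries (3 control ASO, 3 U7 ASO, grouped by sample title) was read from tables in which the authors deposited raw counts of reads per repeat locus. The submitters' processing notes name FastQC (0.11.5), STAR (2.5.3a), featureCounts (1.5.0-p1) of Subread and the build GRCh38. Not given in the sources used here are the repeat annotation, the strand setting and the treatment of multi-mapping reads. The chosen copies were tested between groups only as part of the fit over all loci. Nothing is read from their calls, because the choice used the same contrast. A paired permutation test over the 3 U7 ASO libraries is left out because it could not pass any usual threshold.

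Counts were fitted over all loci with edgeR 4.0.16 (R 4.3.3, filterByExpr with a minimum count of 10 and a minimum total of 15, TMM, quasi-likelihood test, Benjamini-Hochberg), tested on simulated data. DESeq2 1.42.0, other scalings, no filter, a replicate block and each library left out were alternatives. CPM divides by the total of a library times its TMM factor. Copies named are the 15 with the largest summed CPM among those read in all 3 U7 ASO libraries, 5 with at least 90% of 20 or more reads in 1 library, the 3 leading pairs within 20 running numbers and 5 just outside the limit; neighbours and the densest span were chosen after their values were seen. The members and lists were chosen with earlier results of these data known. Intervals are exact 95% intervals for counting error, and without molecular identifiers the reads may repeat the same molecule. The p-values measure the spread between these libraries. Sequences of the copies were not used here.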

Additional observations from a re-analysis of the deposited data

How the results depend on the processing

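Requiring at least 10 reads in each library lowered the number of silent copies seen in all 3 U7 ASO libraries from 467 to 215, and allowing up to 2 control reads raised the share of LTR12C reads in the chosen copies from 33.5% to 37.8%. Leaving out 1 library at a time, that number ran from 506 to 609, the share from 32.3% to 43.1% (highest without control replicate 3), the part of the reads in the leading 10 copies from 10.7% to 15.9%, the silent copies called raised from 85 to 170 and all loci called raised from 293 to 624, both lowest without U7 ASO replicate 1. The number of all loci called raised also moved by over 1.5 times without U7 ASO replicate 3 (372). The silent copies tested numbered 179 in the main fit and between 204 and 321 with a library left out. The calls were thus 85 of 204 without U7 ASO replicate 1 and 170 of 321 without control replicate 3. Without a U7 ASO library, reads in both others were required. With the replicate number as a block, 147 silent copies and 589 of all loci were called raised. Deviations of same-numbered libraries were hardly correlated (r = 0.06, −0.03 and 0.04 for numbers 1, 2 and 3). Differently numbered libraries gave r between −0.08 and 0.05. With 3 libraries per group this cannot show whether same-numbered libraries were handled together. Other scalings, DESeq2 and no count filter left the silent copies called raised between 163 and 179. With library totals as the only scaling the bounds of the 15 leading copies were 0.961 times those given, and with a floor of 6 control reads, chosen after seeing the data, they ran from 53.6 to 144. The counts cannot tell 0 from fewer than 3 reads over the controls, and 138 copies hold too few reads for any bound above 1.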
